A study of Macaca mulatta with 43 samples.

Results

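The tubulins, the kinesin and cytoplasmic dynein motors, the dynactin subunits, the stathmins and the MAP6 proteins were followed in the medial prefrontal cortex of rhesus macaques. Genes were taken by symbol (names that begin TUBA, TUBB, TUBD, TUBE, TUBG, DYNC, DYNLL, DYNLT, DYNLRB, DCTN or MAP6, or KIF, KLC or STMN with a digit next), with no measured value in the choice of gene. The array's probe table held 65 such genes of 14132 named by a probeset with a single symbol. They were measured by 115 probesets, and each gene was represented by the probeset with the highest mean level. Of the 65, 64 passed the filter on low values; KIF18A, a mitotic kinesin, lay between 2.65 and 2.97 on every array and was not tested. Several abundant neuronal genes, among them TUBA1A, TUBB2A, KIF1A, DYNC1I1 and STMN1, had no single-symbol probeset and were not analysed here.

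Microtubules are hollow polymers of alpha- and beta-tubulin, nucleated by gamma-tubulin rings, stabilized by proteins such as MAP6 and loosened by stathmins. In neurons they fill axons and dendrites and serve as tracks, along which most kinesins carry cargo toward the plus end and cytoplasmic dynein, with its cofactor dynactin, carries cargo back toward the cell body. Other kinesins act in cell division, in cilia or in shortening microtubules.

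Each of the 43 arrays measured 1 adult male, aged 5 to 11 years over the study, with RNA pooled over Brodmann areas 24, 25 and 32. Drinking was started by schedule-induced polydipsia, after which 4% (w/v) ethanol and water stood open to the 32 ethanol animals 22 hours a day for 1 year. The 11 controls had water and a daily maltose dextran solution matched in calories, although their group label names water alone. Cohort 4 held 11 ethanol animals and no control, cohort 5 held 8 ethanol animals and 5 controls, cohort 7a held 8 and 4, and cohort 7b held 5 and 2. RNA was extracted with the RNeasy Mini kit in cohorts 4 and 5 and with the All Prep kit in cohorts 7a and 7b, so cohort pair and kit cannot be told apart. Comparisons were read over all arrays and within cohorts. Unless a cohort was fitted alone, the within-cohort fits shared 1 estimate of the spread over all 43 arrays. Their standard errors and p-values therefore do not measure the spread within that cohort alone. The fit over all arrays included cohort 4 and, unless stated, held no cohort or batch term, so it can mix cohort differences with treatment. Values are log2 RMA levels, on which a difference of 1 is a 2-fold change. They order arrays for 1 probeset but do not order genes.

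The 2 sets of arrays also differed in the actin control probesets, where the 3′ minus 5′ value, a measure of truncated RNA among arrays processed alike, ran from 4.24 to 4.95 in cohorts 4 and 5. In cohorts 7a and 7b it was 0.75 to 0.87 in the 6 controls and 0.76 to 1.71 in the 13 ethanol animals. It therefore moved with treatment in those cohorts, and where a call over all arrays was lost with batch and this value in the model, that value is given beside the result. Only 1 ethanol animal of cohorts 7a and 7b lay within the controls' range of it, so its effect and that of treatment can hardly be told apart there. The 10 neuron markers measured all passed the filter on low values; on its lowest array, the synaptic vesicle protein SYT1 was at 13.09, and the kinase CAMK2A at 6.29.

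Over all 43 arrays, 6 of the 64 genes were higher in ethanol animals and 4 were lower (limma, Benjamini-Hochberg adjusted p under 0.05 over 23815 probesets). The share was 15.6%, against 16% of all probesets tested (5.57% higher and 10.4% lower) and 16.5% when each gene had 1 probeset, so the share of members was near the background. With cohort in the model 25 genes passed (39.1%, against 33.1% of all probesets), and with processing batch 15 (23.4%, against 22.5%). With batch and the RNA integrity number in the model, only MAP6D1 and KIF20B passed (3.12%, against 0.764% of all probesets). Without these terms, the genes that rose were MAP6D1, MAP6, KIF20B, KIF7, TUBGCP6 and DCTN1, and those that fell were TUBD1, DYNLT2B, KIF9 and DCTN6. The median difference was -0.03 over the 64 genes and -0.04 over all probesets. Since the tissue was bulk cortex, fewer cells of a type and less RNA per cell cannot be told apart.

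The largest difference of any member was that of MAP6D1, which encodes a small relative of the microtubule-stabilizing protein MAP6. In cohort 7a, the controls were at 8.46, 8.74, 8.77 and 9.13, and the 8 ethanol animals ran from 10.58 to 11.31 with a median of 10.78. In cohort 7b, the controls were at 8.63 and 8.73, and the ethanol animals at 10.95, 11.15, 11.15, 11.31 and 11.36. No ethanol animal of these cohorts overlapped a control. The cohort 5 controls, at 11.43, 11.45, 11.55, 11.58 and 11.66, overlapped the cohort 5 ethanol animals (11.43 to 11.76, median 11.54), and cohort 4 ran from 11.32 to 11.74. The 6 controls of cohorts 7a and 7b were thus below all 37 other arrays, drinkers and cohort 5 controls alike. MAP6D1 was higher in ethanol animals by 2.08 ± 0.11 (SE) in cohort 7a and 2.504 ± 0.14 in cohort 7b (limma adjusted p = 2.02e-18 and 2.2e-16), against 0.03 ± 0.10 in cohort 5. Over all arrays the difference was 1.31 ± 0.26 (adjusted p = 0.00166).

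**Figure D1:**
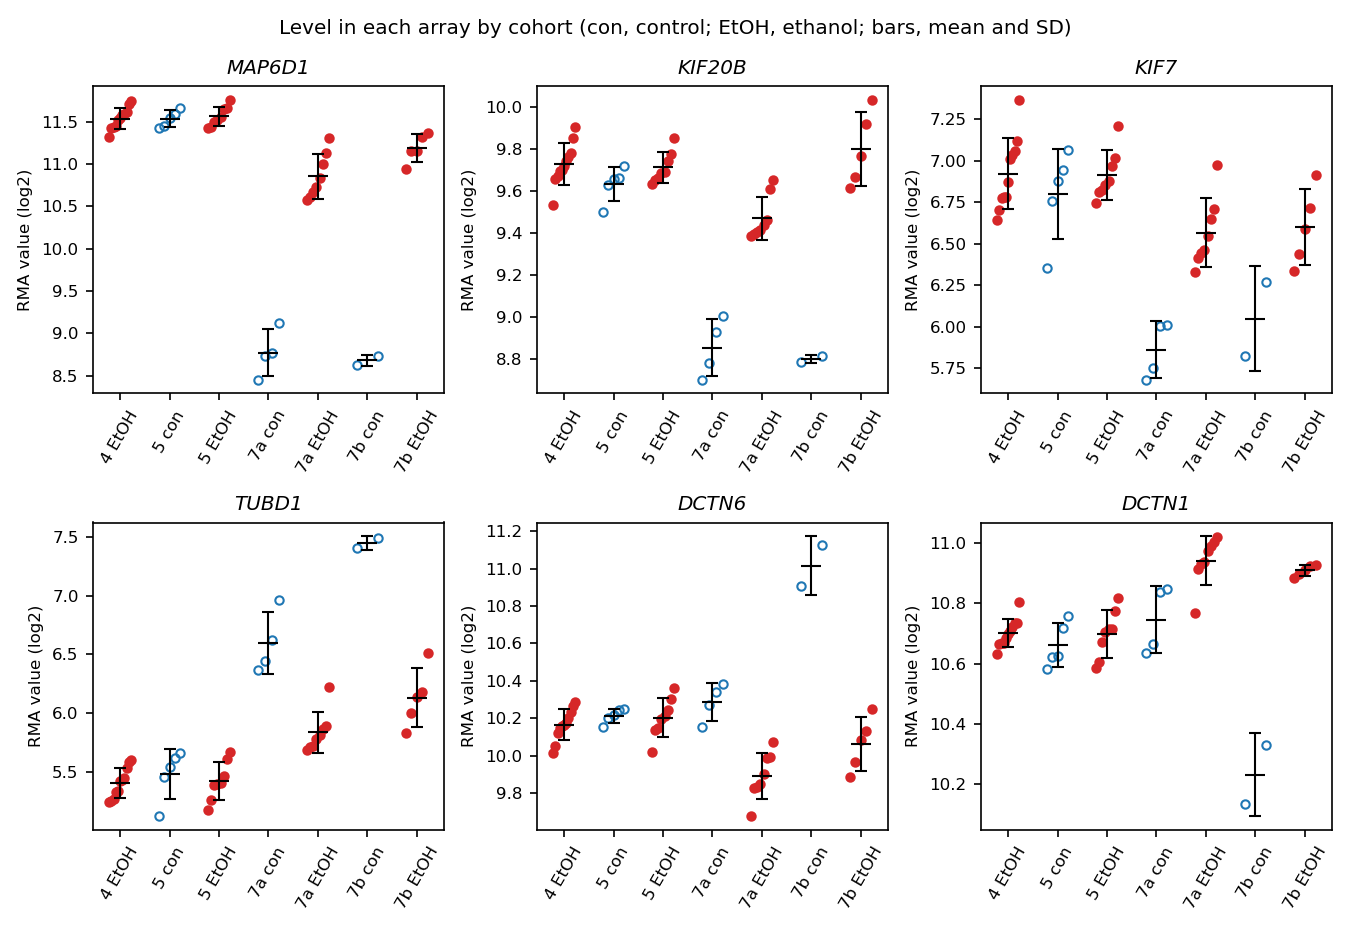
RMA level (log2, y axis) of 6 genes in each of the 43 arrays by cohort and treatment (x axis), with open circles for controls, filled circles for ethanol animals and bars for the mean and SD. For MAP6D1, KIF20B and KIF7 the 6 controls of cohorts 7a and 7b lie below every other array, and in cohort 5 the groups overlap for each of the 6 genes.

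MAP6 itself, which stabilizes neuronal microtubules against cold, rose by less. Its level was 8.07, 8.29, 8.34 and 8.52 in the cohort 7a controls and 8.39 to 8.82 (median 8.65) in the ethanol animals, so the groups overlapped. In cohort 7b the controls were at 7.995 and 8.06, below all 5 ethanol animals (8.42 to 8.87). The difference was 0.33 ± 0.08 in cohort 7a, 0.62 ± 0.11 in cohort 7b and 0.04 ± 0.07 in cohort 5 (adjusted p = 0.00148, 1.16e-05 and 1), and 0.25 ± 0.06 over all arrays (adjusted p = 0.00443), falling short with batch and the actin value (0.17 ± 0.06, adjusted p = 0.0593). Its other probeset gave 0.47 and 0.93 in cohorts 7a and 7b, but 0.22 with adjusted p = 0.149 over all arrays.

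Among the stathmins, which bind free tubulin and loosen the polymer, none of the 3 measured passed over all arrays without a block. STMN2, the neuronal stathmin of growing axons, differed by -0.06 ± 0.04 over all arrays and by -0.07, -0.10 and -0.11 in cohorts 5, 7a and 7b, none of which passed. STMN3 rose in cohort 7b by 0.41 ± 0.06 (adjusted p = 1.85e-06), where the controls were at 10.62 and 10.72 and the ethanol animals between 10.99 and 11.17. Over all arrays STMN3 differed by 0.11 ± 0.04 (adjusted p = 0.0657), and it passed with batch (0.12 ± 0.04, adjusted p = 0.0469) or cohort (0.13 ± 0.04, adjusted p = 0.00351) in the model.

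The tubulin subunits of the polymer gave smaller differences. None of the 2 alpha-tubulins and 3 beta-tubulins measured passed over all arrays. Of these, TUBAL3 and TUBB1 had low mean levels over all arrays, 4.28 and 5.11. TUBB, a beta-tubulin of most cells, had differences of 0.01 ± 0.07, -0.11 ± 0.07 and 0.17 ± 0.10 in cohorts 5, 7a and 7b. The neuronal beta-tubulin TUBB3 differed by 0.02 ± 0.09 over all arrays. It rose in cohort 7a by 0.24 ± 0.07 (adjusted p = 0.00534), with controls between 11.40 and 11.62 and ethanol animals between 11.56 and 11.999. In cohort 7b it differed by 0.12 ± 0.09 (adjusted p = 0.33), and 1 of its other 3 probesets had a negative difference in both cohorts. TUBA4A, an alpha-tubulin, differed by 0.06 ± 0.05 over all arrays.

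TUBD1, the delta-tubulin of centrioles, fell by more than any other member. In cohort 7a the controls were at 6.37, 6.45, 6.62 and 6.96 and the ethanol animals ran from 5.68 to 6.22 with a median of 5.80. In cohort 7b the controls were at 7.41 and 7.49 and the ethanol animals at 5.83, 6.003, 6.13, 6.18 and 6.51. The groups did not overlap within either cohort, although the highest cohort 7b ethanol animal lay above 2 of the cohort 7a controls. In cohort 5 the controls ran from 5.12 to 5.66 and the ethanol animals from 5.18 to 5.67. The difference was -0.76 ± 0.11 in cohort 7a, -1.32 ± 0.15 in cohort 7b and -0.06 ± 0.10 in cohort 5 (adjusted p = 1.32e-06, 3.35e-09 and 1). Over all arrays it was -0.61 ± 0.17 (adjusted p = 0.0112), and without either cohort 7b control the adjusted p became 0.0517 or 0.0518, and without cohort 4 it was 0.0995.

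The other 2 minor tubulins passed in cohort 7b and did not pass in cohorts 5 and 7a; cohort 7b was not tested against cohort 7a. TUBG1, the gamma-tubulin that nucleates microtubules, differed by 0.00 ± 0.05 in cohort 5 and 0.01 ± 0.06 in cohort 7a and fell by 0.27 in cohort 7b (difference -0.27 ± 0.08, adjusted p = 0.00345). TUBE1, the epsilon-tubulin of centrioles, differed by 0.08 ± 0.12 and 0.14 ± 0.13 in cohorts 5 and 7a and by -0.43 ± 0.18 in cohort 7b (adjusted p = 0.0497). The mean effect in cohorts 7a and 7b minus that in cohort 5 did not pass for either gene (adjusted p = 0.153 and 0.304). Neither gene passed over cohorts 7a and 7b with batch in the model (-0.11 ± 0.07 and -0.13 ± 0.18, limma adjusted p = 0.282 and 0.641).

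In the gamma-tubulin ring complex, TUBGCP6 rose by 0.20 ± 0.05 over all arrays (adjusted p = 0.0111), with 7.37 ± 0.16 in controls (SD, n = 11) and 7.57 ± 0.15 in ethanol animals (SD, n = 32). Both of its probesets passed, at 0.20 and 0.21. The call was lost with batch and the actin value (0.15 ± 0.05, adjusted p = 0.0564) and without cohort 4 (adjusted p = 0.0531). Its differences were 0.12, 0.20 and 0.36 in cohorts 5, 7a and 7b, and the mean of cohorts 7a and 7b minus cohort 5 did not pass (0.16 ± 0.11, adjusted p = 0.258). TUBGCP4, another ring subunit, differed by -0.32 ± 0.12 over all arrays (adjusted p = 0.0668), passed with batch (-0.21 ± 0.07, adjusted p = 0.0375) or cohort (-0.26 ± 0.07, adjusted p = 0.00579) in the model, and fell in cohort 7b by 0.49 (difference -0.49 ± 0.16, adjusted p = 0.0134). TUBGCP2 did not pass in any cohort.

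None of the 11 kinesins of axonal and dendritic transport passed over all arrays on its brightest probeset. With cohort in the model 3 passed, all higher: KIF5C (0.17 ± 0.04, adjusted p = 0.0013), KIF1C (0.18 ± 0.06, adjusted p = 0.0128) and KIF3A (0.37 ± 0.12, adjusted p = 0.0156). Within cohorts the subunits of kinesin-1, the main plus-end motor of axons, went in different directions. KIF5C, a neuronal heavy chain, was at 12.89, 12.92, 12.96 and 13.02 in the cohort 7a controls, and the ethanol animals had a median of 13.15 and a highest value of 13.26, the lowest lying under the highest control. In cohort 7b it was at 12.30 and 12.42 against 12.77 to 12.93, with no overlap. It rose by 0.19 ± 0.05 and 0.50 ± 0.07 (adjusted p = 0.00367 and 1.62e-07), against 0.01 ± 0.05 in cohort 5. KIF5A, the other heavy chain restricted to neurons, was at 10.38 and 10.39 in the cohort 7b controls and at 9.74 to 10.04 in the ethanol animals. It fell there by 0.49 (difference -0.49 ± 0.14, adjusted p = 0.00507) and differed by -0.19 ± 0.10 in cohort 7a and 0.12 ± 0.10 in cohort 5. KIF5B, the heavy chain of most cells, differed by 0.10, -0.04 and -0.08 in cohorts 5, 7a and 7b without passing. A dimmer probeset for KIF5B fell by 0.61 and by 1.15 in cohorts 7a and 7b, so the probesets of this gene disagreed. The dimmer one also passed over all arrays (difference -0.56, limma adjusted p = 0.0102), and with batch in the model (-0.44, adjusted p = 0.00323). The kinesin light chain KLC1, a cargo adaptor, was dim on this array, with a mean level of 4.79 over all arrays. It differed by -0.02 ± 0.09, 0.06 ± 0.10 and 0.31 ± 0.13 in the 3 cohorts (adjusted p = 1, 0.661 and 0.0646). None of the 4 light chains passed in any of these cohorts.

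Kinesin-2, which moves cargo in axons and cilia, is built of KIF3A with KIF3B or KIF3C. KIF3A was at 5.59, 5.89, 6.07 and 6.17 in the cohort 7a controls. Of the 8 cohort 7a ethanol animals, 2 lay at 5.730 and 5.737 and the other 6 between 6.61 and 7.12. In cohort 7b the controls were at 6.08 and 6.15 and the ethanol animals at 6.51, 6.81, 6.88, 6.98 and 7.18. KIF3A rose by 0.67 ± 0.18 and 0.76 ± 0.24 (adjusted p = 0.00304 and 0.00986), against -0.08 ± 0.16 in cohort 5. KIF3B and KIF3C, chosen after their values were seen, rose in cohort 7b, both by 0.32, and did not pass in cohort 7a on their brightest probesets. Both other KIF3B probesets passed in cohort 7a, at 0.55 (adjusted p = 4.44e-06) and 0.43 (adjusted p = 0.0122), and the first of them also passed over all arrays with batch in the model (0.28, adjusted p = 0.00544), so the probesets of KIF3B disagreed there.

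KIF1B, a kinesin-3 that carries synaptic vesicle precursors and mitochondria, fell in cohort 7a by 0.36 (difference -0.36 ± 0.12, adjusted p = 0.0209) and differed by 0.26 ± 0.17 in cohort 7b. Its other 2 probesets were below 0 in both cohorts, and the dimmest fell by 0.78 in cohort 7b and by 0.26 over all arrays (adjusted p = 0.00833). KIF2A, a kinesin-13 that shortens microtubules and trims axon branches, differed by -0.06 ± 0.08 in cohort 7a and fell by 0.46 in cohort 7b (difference -0.46 ± 0.11, adjusted p = 0.000496). Its probesets disagreed: the second brightest gave 0.16 over all arrays without passing, while the dimmest of 4 fell by 0.23 (adjusted p = 0.00547).

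Among the 5 kinesins of cell division tested, only KIF20B passed over all arrays, where it rose. Within cohorts, KIF4A fell in cohort 7a (difference -0.31, limma adjusted p = 0.00722) and KIF23 in cohort 7b (difference -0.27, adjusted p = 0.0424). KIF20B, known for its part in cytokinesis, is also present in postmitotic neurons. Its level was 8.70, 8.78, 8.93 and 9.01 in the cohort 7a controls and 9.38 to 9.65 in the ethanol animals, with a median of 9.43. In cohort 7b it was 8.79 and 8.81 against 9.61, 9.66, 9.77, 9.92 and 10.03. The 6 controls lay below all 37 other arrays. KIF20B was higher by 0.61 ± 0.07 and 1.00 ± 0.09 in cohorts 7a and 7b (adjusted p = 8.88e-09 and 4.17e-11), against 0.08 ± 0.06 in cohort 5, and by 0.47 ± 0.09 over all arrays (adjusted p = 0.000933). Of 3 probesets tested for the gene, only this one passed over all arrays. The second gave -0.07 there and -0.01 and 0.26 in cohorts 7a and 7b, and the third passed in cohort 7b (0.42, adjusted p = 0.000293) but not in cohort 7a (0.16, adjusted p = 0.0674).

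Of the 10 other kinesins, 1 rose and 1 fell over all arrays. KIF7, a kinesin of the primary cilium that regulates Hedgehog signalling, was at 5.68, 5.75, 6.004 and 6.007 in the cohort 7a controls and 6.33 to 6.97 in the ethanol animals, and at 5.82 and 6.27 against 6.34 to 6.92 in cohort 7b. The groups did not overlap. The differences were 0.70 ± 0.12, 0.55 ± 0.17 and 0.11 ± 0.12 in cohorts 7a, 7b and 5 (adjusted p = 3.76e-05, 0.00841 and 1), and 0.46 ± 0.11 over all arrays (adjusted p = 0.0064). Without cohort 4 KIF7 no longer passed (0.38, adjusted p = 0.0527). KIF9, a kinesin of motile cilia, was lower on its brightest probeset (difference -0.32 ± 0.08, adjusted p = 0.00784), with differences of -0.44 ± 0.11 and -1.01 ± 0.15 in cohorts 7a and 7b. With batch and the actin value the call was lost (-0.21 ± 0.08, adjusted p = 0.092). That probeset is of a type that can match several transcripts, as are the brightest probesets of TUBB, KIF1C, STMN4, DYNC1LI1, DCTN3, DCTN4 and DCTN6. None of the other 4 probesets of KIF9 passed in any cohort, and the next brightest gave 0.04 over all arrays, so the fall of KIF9 rested on 1 probeset.

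**Figure D2:**
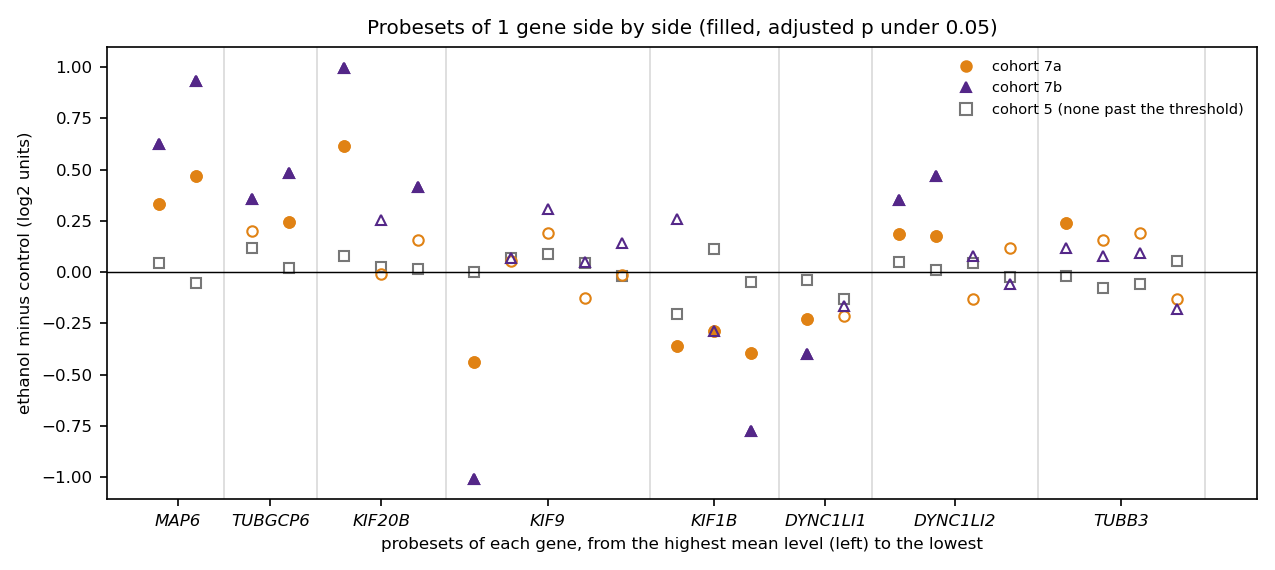
Ethanol minus control (log2 units, y axis) within cohorts 5 (squares), 7a (circles) and 7b (triangles) for every tested probeset of 8 genes with several, placed from the brightest to the dimmest within a gene (x axis). Filled symbols have an adjusted p under 0.05; the probesets of MAP6 and TUBGCP6 lie together, and those of KIF9 and KIF20B do not.

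Cytoplasmic dynein is the main minus-end motor of neurons. Its heavy chain DYNC1H1, which holds the motor domain, was dim on this array (4.83 ± 0.21 in controls, SD, n = 11; 4.83 ± 0.20 in ethanol animals, SD, n = 32) and differed by -0.01 ± 0.09, 0.08 ± 0.10 and 0.10 ± 0.14 in cohorts 5, 7a and 7b, without passing. The 2 light intermediate chains, which link the motor to its cargo adaptors, changed in opposite directions and were chosen after their values were seen. DYNC1LI1 fell by 0.23 and 0.40 in cohorts 7a and 7b (differences -0.23 ± 0.07 and -0.40 ± 0.10, adjusted p = 0.0142 and 0.00109), and DYNC1LI2 rose by 0.19 ± 0.07 and 0.35 ± 0.09 (adjusted p = 0.0312 and 0.00178). In cohort 5 the values were -0.04 ± 0.07 and 0.05 ± 0.06. Over cohorts 7a and 7b with batch in the model, DYNC1LI1 passed (-0.25 ± 0.09, limma adjusted p = 0.0375) and DYNC1LI2 did not (0.30 ± 0.12, adjusted p = 0.0562). The 2 dimmer of 4 DYNC1LI2 probesets and the dimmer of 2 DYNC1LI1 probesets did not pass in either cohort.

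The dynein light chains fell or did not pass. DYNLL1, a light chain that is also a hub for many other proteins, was at 13.12, 13.15, 13.15 and 13.29 in the cohort 7a controls and 12.92 to 13.09 in the ethanol animals, and at 13.61 and 13.72 against 13.16 to 13.39 in cohort 7b. The groups did not overlap within either cohort. It fell by 0.18 and 0.39 (differences -0.18 ± 0.05 and -0.39 ± 0.07, adjusted p = 0.00306 and 6.41e-06), against -0.01 ± 0.04 in cohort 5. Over all arrays DYNLL1 did not pass (-0.12 ± 0.05, limma adjusted p = 0.101), nor with batch in the model (-0.13 ± 0.06, adjusted p = 0.0861). With cohort in the model it did (-0.15 ± 0.04, adjusted p = 0.00171). DYNLT2B, a light chain of the dynein that works in cilia, was at 8.25, 8.57, 8.58 and 8.97 in the cohort 7a controls and 7.69 to 8.36 in the ethanol animals. In cohort 7b it was at 8.87 and 9.65 against 8.14 to 8.65. It differed by -0.54 ± 0.13, -0.94 ± 0.18 and 0.01 ± 0.12 in cohorts 7a, 7b and 5 (adjusted p = 0.0015, 4.02e-05 and 1). Over all arrays the difference was -0.36 ± 0.11 (adjusted p = 0.0198), with adjusted p = 0.0609 without 1 of the cohort 7a controls (replicate 27), 0.0907 or 0.0664 without the one or the other cohort 7b control, and 0.083 without cohort 4. With batch and the actin value it was -0.22 ± 0.10 (adjusted p = 0.136). DYNLRB2, a light chain of the roadblock family, fell in cohort 7b by 0.87 (difference -0.87 ± 0.15), where the controls were at 9.33 and 9.41 and the ethanol animals between 8.27 and 8.76, and differed by -0.08 ± 0.11 in cohort 7a. Over cohorts 7a and 7b with batch in the model DYNLRB2 did not pass (-0.37 ± 0.15, limma adjusted p = 0.0782).

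Dynactin, which activates dynein, showed 2 directions among its 5 measured subunits. DCTN1, the p150 subunit that binds both dynein and the microtubule, was at 10.64, 10.67, 10.84 and 10.85 in the cohort 7a controls and 10.77 to 11.02 in the ethanol animals. In cohort 7b it was at 10.13 and 10.33 against 10.89, 10.90, 10.91, 10.93 and 10.93. It rose by 0.20 ± 0.05 and 0.68 ± 0.07 (adjusted p = 0.00338 and 4.1e-10), against 0.04 ± 0.05 in cohort 5, and by 0.18 ± 0.05 over all arrays (adjusted p = 0.0212). Without the one or the other cohort 7b control the last adjusted p was 0.0953 or 0.079.

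The pointed-end subunits DCTN5 and DCTN6, at the other end of the dynactin filament, fell. DCTN6 was at 10.15, 10.27, 10.34 and 10.38 in the cohort 7a controls and 9.68 to 10.07 in the ethanol animals, and at 10.90 and 11.13 against 9.88 to 10.25 in cohort 7b. It differed by -0.40 ± 0.07, -0.95 ± 0.09 and -0.01 ± 0.06 in cohorts 7a, 7b and 5 (adjusted p = 2.28e-05, 8.77e-11 and 1), and by -0.30 ± 0.07 over all arrays (adjusted p = 0.00649), which was lost with batch and the actin value (-0.24 ± 0.08, adjusted p = 0.0542). DCTN5, named after its values were seen, differed by -0.61 ± 0.15 and -1.08 ± 0.21 in cohorts 7a and 7b (adjusted p = 0.00252 and 6.12e-05). Over all arrays it did not pass (-0.54 ± 0.21, adjusted p = 0.07), while with batch (-0.33 ± 0.11, adjusted p = 0.0318) or cohort (-0.45 ± 0.11, adjusted p = 0.00179) in the model it did. With batch and the actin value DCTN5 did not pass (-0.20 ± 0.10, limma adjusted p = 0.224). DCTN3 and the brightest DCTN4 probeset did not pass in any cohort, and a dimmer DCTN4 probeset fell in cohort 7b by 0.44 (adjusted p = 0.00661).

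**Figure D3:**
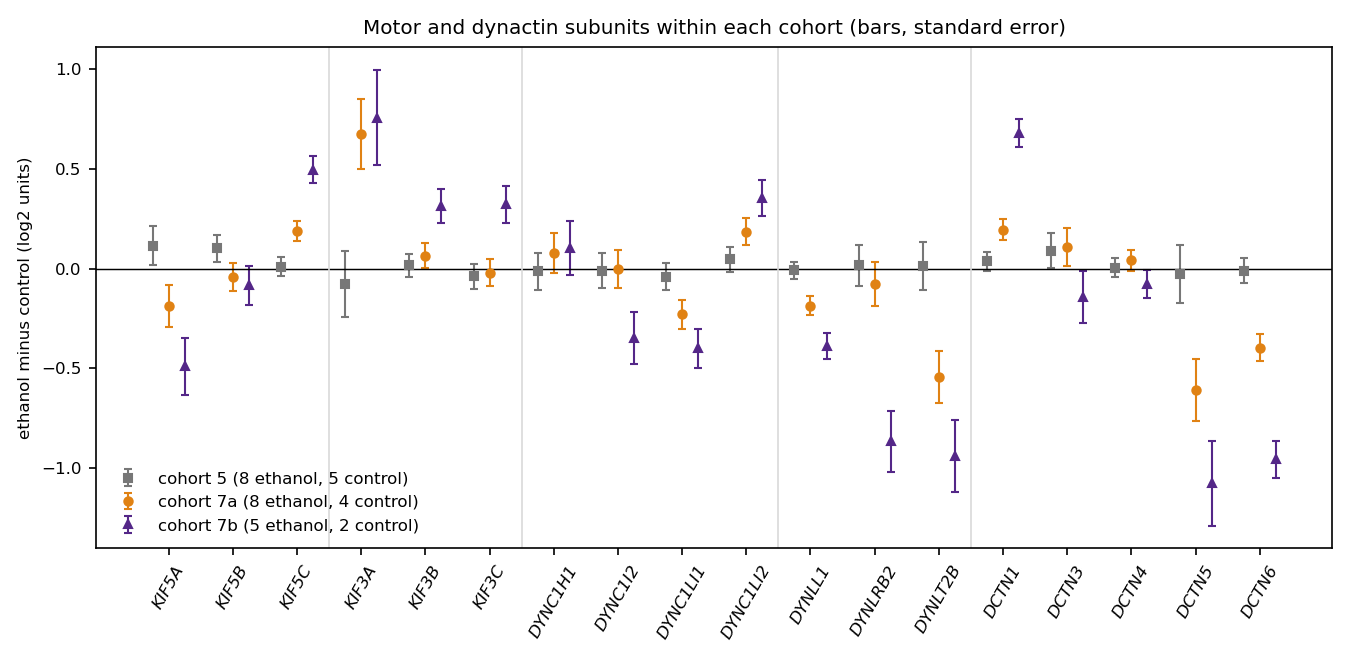
Ethanol minus control (log2 units, y axis) within cohorts 5, 7a and 7b for 18 kinesin, dynein and dynactin subunits (x axis), with the standard error of the model as bars. The cohort 5 values lie near 0, while in cohorts 7a and 7b DCTN1, KIF5C and DYNC1LI2 lie above 0 and DCTN5, DCTN6, DYNLL1 and DYNC1LI1 below it.

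Read cohort by cohort, none of the 64 genes passed in cohort 5, where none of the 23815 probesets did (0%; limma, unadjusted p under 0.05 in 1 gene and in 723 probesets). In cohort 5, differences ran from -0.20 for KIF1B to 0.24 for DYNC2I1, a subunit of the cilium's dynein, with a median standard error of 0.08. In cohort 7a, 10 genes were higher and 11 lower, a share of 32.8% against 30.7% of all probesets (10.6% higher and 20.1% lower). In cohort 7b, 16 were higher and 17 lower, a share of 51.6% against 40% (14% higher and 26% lower), with 2 controls in this cohort. These within-cohort fits held no batch term. The 2 cohort 7b controls were processed in batches 6 and 7, and 3 of its ethanol animals in batch 8. Only batch 6 held both treatments of this cohort, so batch and treatment can hardly be told apart there. When each cohort was fitted alone, 11 and 20 genes passed in cohorts 7a and 7b, where 21.4% and 27.3% of all probesets did. In cohort 5 fitted alone, 1 of all probesets passed, and the unadjusted limma p was under 0.05 in 4 genes and in 1133 probesets. Both cohorts called 9 genes higher (MAP6D1, MAP6, KIF20B, KIF7, KIF27, KIF3A, KIF5C, DCTN1 and DYNC1LI2) and 7 lower (TUBD1, KIF9, DCTN5, DCTN6, DYNLL1, DYNLT2B and DYNC1LI1), or 25.0% of the 64 against 21.5% of all probesets. No gene was called in opposite directions.

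The difference between cohorts was tested directly, as the mean effect in cohorts 7a and 7b minus that in cohort 5. It passed for 21 of 64 genes, 10 above 0 and 11 below, a share of 32.8% against 31.4% of all probesets (10.3% above 0 and 21.1% below). It was 2.27 ± 0.13 for MAP6D1, 0.73 ± 0.09 for KIF20B, 0.79 ± 0.22 for KIF3A and 0.40 ± 0.06 for DCTN1, and -0.98 ± 0.14 for TUBD1, -0.82 ± 0.19 for DCTN5, -0.67 ± 0.09 for DCTN6 and -0.28 ± 0.06 for DYNLL1.

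**Figure D4:**
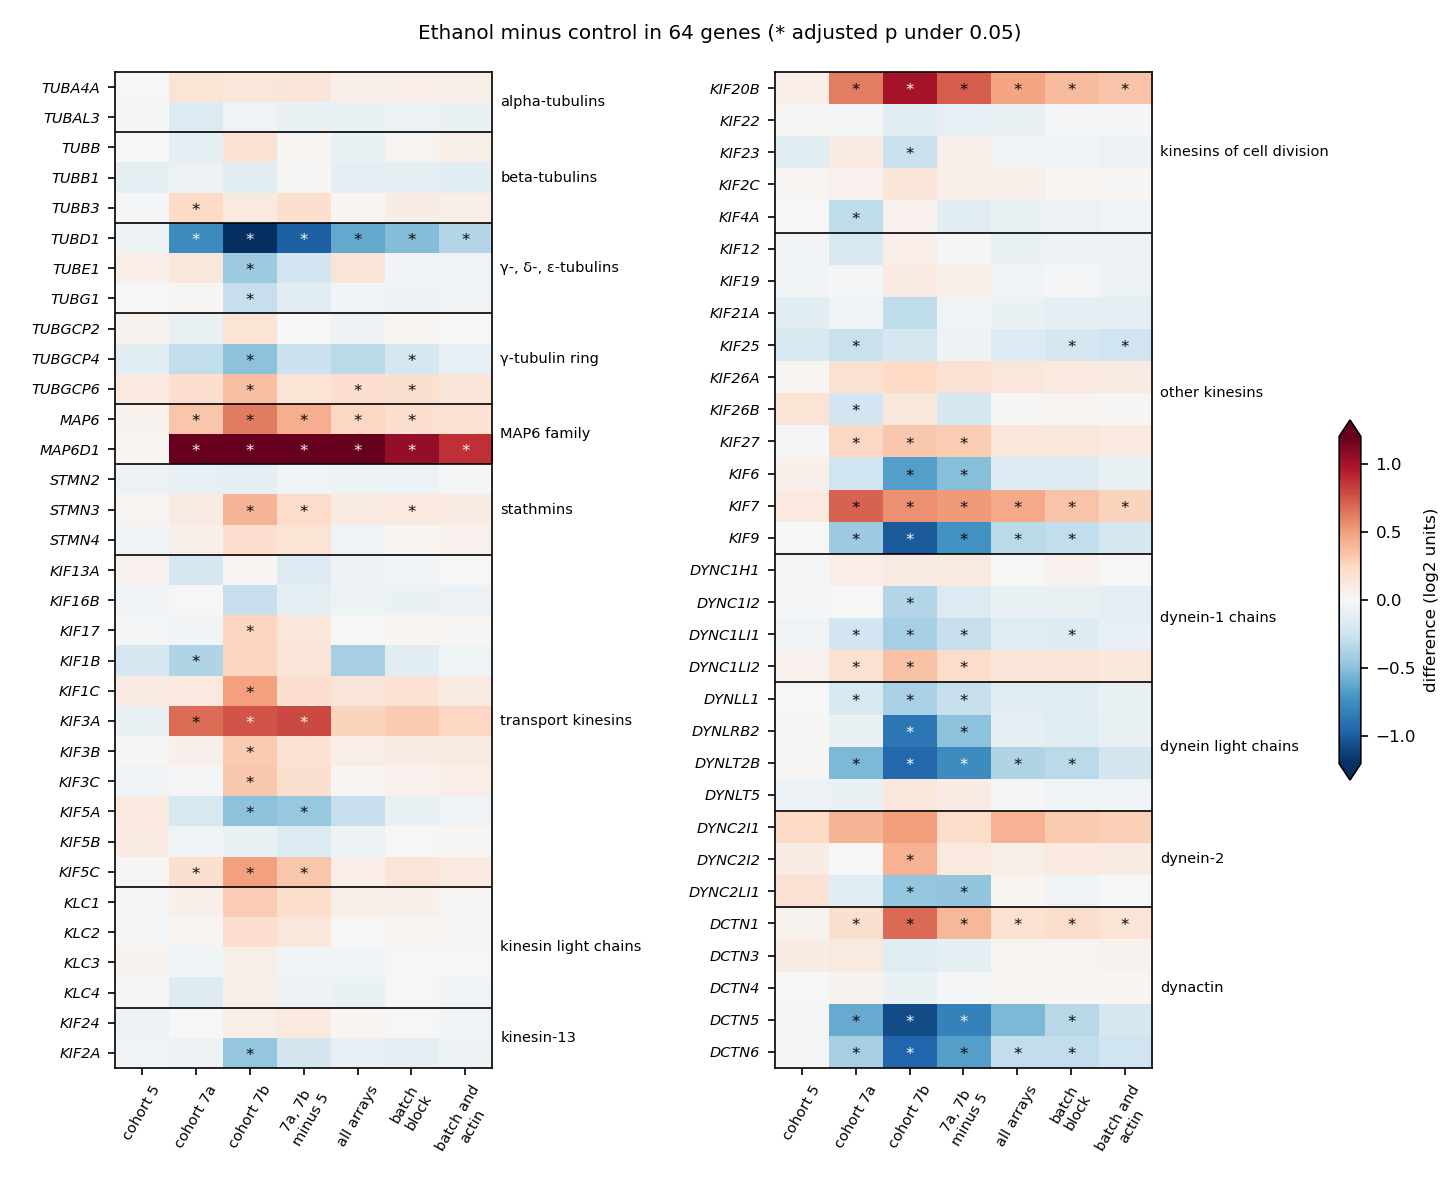
Ethanol minus control (log2 units, color) for the 64 genes tested (rows, grouped by role) within cohorts 5, 7a and 7b, as the difference between those cohorts, over all arrays, and over all arrays with batch or with batch and the actin value in the model (columns). Asterisks mark an adjusted p under 0.05; the cohort 5 column holds none, the cohort 7b column 33.

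Between the 13 ethanol animals and the 6 controls of cohorts 7a and 7b, the groups did not overlap for 3 of 64 genes, MAP6D1, KIF20B and KIF7, all higher in ethanol animals (4.69%, against 4.76% of all probesets, 2.21% with ethanol higher). In cohort 5 this held for DCTN3 alone, by a difference of 0.09 ± 0.09 that did not pass (1 of 64 genes, against 0.168% of all probesets). That standard error rests on a spread shared by all 43 arrays. The SD of DCTN3 was 0.04 in the ethanol animals and 0.03 in the controls of cohort 5, and 0.27 in both groups of cohorts 7a and 7b. The same 3 genes, MAP6D1, KIF20B and KIF7, were those whose 6 controls of cohorts 7a and 7b lay outside the range of all other arrays (against 2.82% of all probesets). The 2 controls of cohort 7b stood outside the range of all 41 other arrays for 13 of 64 genes (20.3%, against 15% of all probesets). They were above for DCTN5, DCTN6, DYNLL1, DYNLRB2 and TUBD1, and below for DCTN1, DYNC1LI2, KIF1C, KIF3B, KIF27, MAP6, STMN3 and TUBGCP6.

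The models with the actin value as a term were also fitted within cohorts 7a and 7b, a setting added after the data were seen. With batch and the actin value in the model, 10 of 64 genes passed in cohorts 7a and 7b (15.6%, against 13.6% of all probesets), compared with 23 with batch alone (against 31.5%). They were MAP6D1, MAP6, KIF20B, KIF7 and DCTN1 above 0 and TUBD1, DYNLT2B, KIF9, KIF25 and DCTN6 below. MAP6D1 had a difference of 2.18 ± 0.17 and KIF20B one of 0.78 ± 0.11, against 2.22 and 0.70 without the actin value. TUBD1 went from -1.04 to -0.72 ± 0.16, and DYNC1LI1 from -0.25 to -0.09 ± 0.09.

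**Figure D5:**
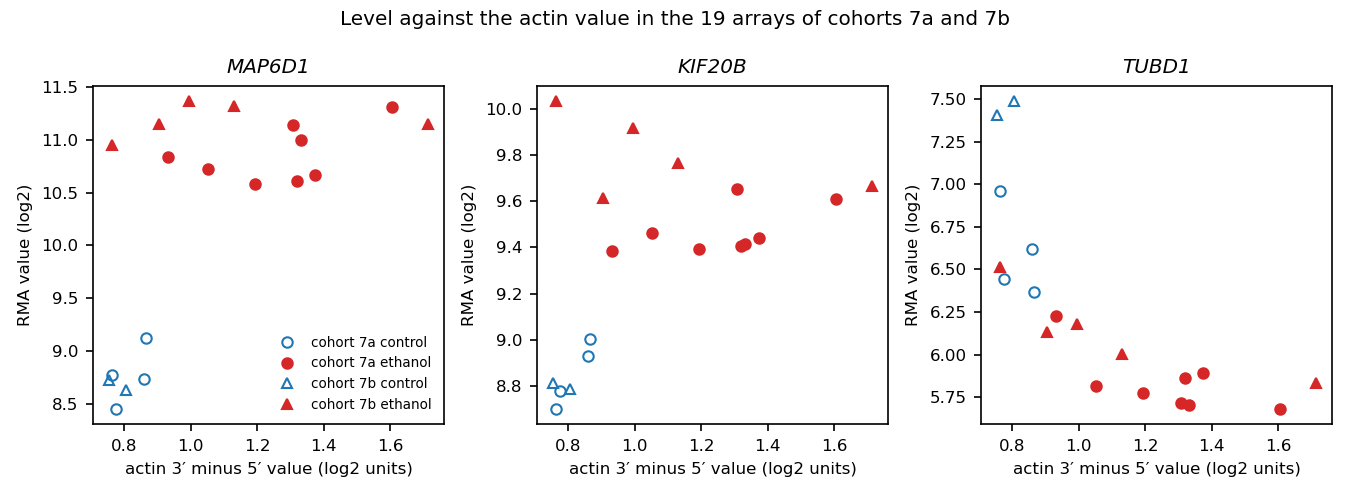
RMA level (log2, y axis) of MAP6D1, KIF20B and TUBD1 against the actin 3′ minus 5′ value (log2 units, x axis) in the 19 arrays of cohorts 7a (circles) and 7b (triangles), open for controls and filled for ethanol animals. The 6 controls lie at actin values of 0.75 to 0.87, where 1 ethanol animal lies too, and the other 12 ethanol animals start at 0.905, so the groups can hardly be compared at like actin values.

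Over all arrays with batch and the actin value, 6 genes passed (9.38%, against 6.9% of all probesets): MAP6D1, KIF20B, KIF7 and DCTN1 above 0, and TUBD1 and KIF25 below. With batch and the RNA integrity number, which drops the 1 cohort 7b control without a number, MAP6D1 (0.83 ± 0.20, adjusted p = 0.0381) and KIF20B (0.33 ± 0.07, adjusted p = 0.0334) passed, 3.12% of the 64 genes against 0.764% of all probesets. The other 8 genes called over all arrays did not pass there.

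Among the 32 ethanol animals, no gene of the 64 had a slope on average daily ethanol intake that passed, and no probeset did (0%; limma, unadjusted p under 0.05 in 0 genes and in 501 probesets). Slopes ran from -0.11 log2 units per g/kg for DCTN5 to 0.05 for KIF2C. That of MAP6D1 was -0.01 and that of KIF20B -0.02.

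Other genes that shape microtubules were taken from lists by role. Over all arrays 16% of all probesets passed (5.57% higher and 10.4% lower). The counts per list are small and were not tested against that share. Of 7 microtubule-associated proteins tested, 2 rose over all arrays and none fell: DCLK2, a doublecortin-like kinase on neuronal microtubules (0.30 ± 0.07, adjusted p = 0.00639), and MAP1S (0.19 ± 0.07, adjusted p = 0.0427). DCLK2 was 0.33 and 0.65 higher in cohorts 7a and 7b and 0.04 in cohort 5. Of 8 proteins of microtubule ends, CLASP1, which stabilizes plus ends, rose (0.20 ± 0.06, adjusted p = 0.0226). Of 6 tubulin folding cofactors, TBCC, which helps assemble the tubulin dimer, fell by 0.22 (difference -0.22 ± 0.06, adjusted p = 0.0105). Of 15 genes of tubulin modification and severing, 2 rose: TTLL4, a glutamylase of tubulin (0.25 ± 0.07), and VASH1, which removes its terminal tyrosine (0.16 ± 0.06). Of 20 dynein regulators and motor adaptors, 2 rose and 1 fell. HOOK1, an adaptor of dynein, was higher by 0.51 ± 0.06 and 0.62 ± 0.08 in cohorts 7a and 7b and by -0.03 ± 0.06 in cohort 5, and KIFC2, a minus-end kinesin of neurons, by 0.23, 0.67 and 0.08. CAPZA2, which caps the dynactin filament, fell by 0.20 over all arrays. The genes in this paragraph that are named were those that passed over all arrays.

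Markers of the cell types in the tissue were set beside these results. The mean level of 10 neuron markers was 9.87 to 10.10 in the 6 controls of cohorts 7a and 7b and 10.06 to 10.31 in the 13 ethanol animals, and 1 marker passed in cohort 7a, GAD2, which makes GABA (1.51 ± 0.14). In cohort 7b, 3 of the 10 rose and 1 fell. The median difference of the 10 was 0.09 in cohort 7a, with 8 above 0, and -0.01 in cohort 7b, with 5 above 0. The neuron markers thus did not move together in cohort 7b. They include the stathmin STMN2, so the list is not separate from the genes followed here. The 9 microglia markers had mean levels of 7.63 to 7.94 in those controls and 7.45 to 7.78 in the ethanol animals. Of these, P2RY12 (-0.97 and -1.12) and AIF1 (-0.54 and -1.09) were lower in cohorts 7a and 7b and CX3CR1 was lower in cohort 7a (-0.44), while CD68 was higher in cohort 7a (0.32) and CSF1R and C1QC were higher in cohort 7b (0.36 and 0.56).

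The 5 oligodendrocyte markers had mean levels of 10.02 to 10.80 (median 10.57) in the controls of cohorts 7a and 7b and 9.75 to 11.09 (median 10.02) in the ethanol animals, with none called in cohort 7a and CNP higher (0.18) and UGT8 lower (-1.21) in cohort 7b. The 6 astrocyte markers ran from 11.80 to 12.20 in controls and 11.93 to 12.17 in ethanol animals. In cohorts 7a and 7b SLC1A2 was higher (0.30 and 0.65) and S100B lower (-0.41 and -0.53), and GFAP was higher in cohort 7b (0.84). The 7 vessel markers ran from 7.15 to 7.65 and from 7.16 to 8.15, with CLDN5 (-0.36) and PECAM1 (-0.41) lower in cohort 7b. In cohort 5 none of these 37 markers passed. Their part in the differences of the motor and tubulin genes was not tested.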

How the data were processed

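RNA of 43 animals was hybridized to Affymetrix rhesus macaque arrays, 1 array per animal. The deposited values are log2 RMA levels that the authors computed with affy, per the labels; batch was not adjusted in them. No genome build is given in the sources used here, and probesets were named from the platform annotation. Of 52865 probesets, 27535 had no symbol and 361 had several. A filter on dim probesets, after the study's methods (below 3.5 on 80% of arrays or more), left 23815. Differences were tested with limma (version 3.58.1, R 4.3.3) with treatment as the factor, and within cohorts with 7 group means that shared 1 estimate of the spread over all 43 arrays. The p-values were adjusted by Benjamini-Hochberg over all 23815. Only the fit over all arrays without a cohort or batch term was tested on simulated data. Those data held no cohort or batch differences and the same spread in every group. The 8 processing batches were recovered from supplementary batch-adjusted values: 185 of 185 within-batch sets of 3 arrays lay on a line (largest residual 3.38e-06). Integrity numbers and intake, from the supplement, entered as covariates. Genes described were the 2 of smallest p per role among those that passed, and a fixed set of well-known members. DCTN3, DCTN4, DCTN5, DYNC1LI1, DYNC1LI2, DYNLRB2, KIF1C, KIF3B and KIF3C were added after their values were seen. So were KIF4A, KIF23, KIF25, STMN3, TUBA4A, TUBAL3, TUBB1, TUBGCP2 and TUBGCP4. Members, lists and tests were chosen with earlier results of these data known. Alternatives are given below. The number of arrays, above all of controls, limits the precision.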

Additional observations from a re-analysis of the deposited data

Results flagged for a closer look

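In 4 of 120 groups examined over 24 genes, 1 array lay apart from the rest of its group; chance alone flags about 1 in 20 groups. In cohort 7a ethanol animals, the same array was lowest for DCTN1 at 10.77 (nearest 10.91) and highest for TUBD1 at 6.22 (nearest 5.89). A cohort 7a control had DYNC1H1 at 5.35 (nearest 4.89), and a cohort 5 control had TUBG1 at 9.43 (nearest 9.55).

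The ethanol difference in cohorts 7a and 7b departed from that in cohort 5 for 13 of these 24 genes (limma, adjusted p under 0.05). It did so for 32.8% of the 64 genes and 31.4% of all probesets. Part of the 24 were named because they passed over all arrays in these same data, so the choice can raise their share. Above 0, it was 2.27 for MAP6D1, 0.43 for MAP6, 0.73 for KIF20B, 0.79 for KIF3A, 0.33 for KIF5C, 0.515 for KIF7 and 0.40 for DCTN1. Below 0, it was -0.98 for TUBD1, -0.67 for DCTN6, -0.28 for DYNLL1, -0.75 for DYNLT2B, -0.45 for KIF5A and -0.72 for KIF9. The cohorts also differed in RNA kit and in the actin value, whose part was not tested for cohort 5.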

How the results depend on the processing

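Over all arrays, 10 of the 64 genes passed. The count, with the share of all probesets in brackets, was 25 with cohort (33.1%) and 15 with batch (22.5%) in the model, 6 with batch and the actin value (6.9%), 2 with batch and the integrity number (0.764%), 7 without cohort 4 (9.56%), 21 in cohorts 7a and 7b only (36.2%), 0 in cohorts 4 and 5 only (0%), 6 at an adjusted p under 0.01 (5.4%), and 7 to 13 with 1 array left out (7.04% to 20.9%). Settings that were added after the data were seen gave 0 in cohorts 4 and 5 with batch (0%), and 23 in cohorts 7a and 7b with batch (31.5%) or 10 with batch and the actin value (13.6%). Fitted alone, cohort 7a gave 11 in place of 21 genes (21.4%) and cohort 7b 20 in place of 33 (27.3%), and leaving out 1 array gave 17 to 21 (23% to 28.6%) and 23 to 34 (27.7% to 40.5%). For the difference between cohorts, leaving out 1 array gave 19 to 22 in place of 21 (26.5% to 31.9%). Without overlap there were 3 genes in cohorts 7a and 7b and 1 in cohort 5. The counts for cohort 5 and for intake were 0 in every setting.

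Directions turned as follows, on the log2 scale, and the cause was not tested. DYNC1H1 was 0.0436 with cohort, 0.0512 with batch, 0.0042 with batch and actin, 0.0403 without cohort 4, and 0.0689, 0.1474 and 0.0217 in cohorts 7a and 7b alone, with batch, and with batch and actin, with -0.03 to 0.0511 over the fits without 1 array. TUBB was 0.0289 with batch, 0.0183 with the integrity number added, 0.0677 with actin added, 0.0343 without cohort 4, 0.0192 and 0.0411 in cohorts 4 and 5 without and with batch, and 0.0151 and 0.1263 in cohorts 7a and 7b with batch and with actin added. KIF5B was 0.0112 with cohort, 0.0037 with batch, 0.0119 with actin added, 0.0312 without cohort 4, and 0.0522 and 0.0494 in cohorts 4 and 5 without and with batch. TUBE1 was -0.0304 with batch, -0.044 with actin added, -0.0631 without cohort 4, and -0.0391, -0.1252 and -0.1467 in cohorts 7a and 7b alone, with batch and with actin added. In cohorts 4 and 5, without and with batch, the values were 0.0133 and 0.0093 for DYNLL1, 0.018 and 0.0284 for DYNLT2B, -0.0652 and -0.0633 for KIF3A, 0.0837 and 0.0945 for KIF5A, and -0.0235 and -0.0149 for TUBB3, and with batch -0.0059 for KLC1. In cohorts 7a and 7b with batch and actin, KIF1B was 0.1229 and STMN2 0.0477. On the second brightest probeset, KIF20B was -0.0669, KIF2A 0.1602, TUBB3 -0.1814 and KIF9 0.0428, the last also with probesets that can match several transcripts left out. Over the fits without 1 array, TUBB3 ran from -0.0039 to 0.0434.

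No paired analysis was possible because replicate numbers are unique to each animal and no groups share them. The few controls limit every cohort comparison, above all the 2 of cohort 7b.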
